A study of Drosophila melanogaster with 29 samples.

Results

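Insulin and TOR signalling genes were followed across RNA interference of 5 chromatin proteins in Drosophila S2 cells, a line with features of embryonic blood cells. The set held 10 genes, each taken from the brightest array probe set that names it alone. For 8 of them (InR, chico, Akt, foxo, S6k, gig, Tsc1 and ImpL2) such a probe set was among the 11677 genes tested, and Thor and Tor were not analysed here. The set was chosen with the knowledge that InR was higher after every depletion, so values against untreated cells are given as a description, with no p-value, and nothing is read from counts of them.

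The study depleted dKDM2, dRING, PC, PH or PSC by 4 days of double-stranded RNA (dsRNA), with 3 arrays for each depletion, and compared these with untreated cells (Mock), with 14 arrays. All groups were the same line in the same medium, and Mock received no dsRNA, so exposure to dsRNA is shared by all 5 depletions and cannot be told apart from what they have in common. The histone demethylase dKDM2 was one target, and the others, among them dRING (gene Sce), belong to PRC1, a Polycomb complex that keeps developmental genes silent. Arrays of a group are labelled as biological replicates, but no label names separate cultures, so the spread between arrays may be partly technical.

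In flies, insulin-like peptides bind the receptor InR on the cell surface. The adaptor Chico carries the signal to phosphatidylinositol 3-kinase and on to the kinase Akt, which keeps the transcription factor FOXO out of the nucleus. FOXO is known to activate InR and Thor in flies. A parallel branch runs through the kinase TOR, which is held back by the complex of Tsc1 and Gigas (gene gig, the fly TSC2) and acts on the ribosomal protein kinase S6k. ImpL2 is a secreted protein that binds insulin-like peptides and limits their action. In fly tissues this pathway sets growth and metabolism by nutrition.

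Several facts of the whole series touch what follows. Sce fell on the dRING arrays (log2 difference -4.41) and Pc on the PC arrays (-2.21), but Psc was higher than in Mock on the arrays labelled PSC (2.36), as in the other 4 depletions (2.54 to 4.45), so directions given for these arrays, called PSC below, rest on the label. Sce also fell on the dKDM2 (-2.81) and PH arrays (-2.66), and the targets of those labels were not analysed here. The dKDM2 and PH arrays stood apart in control signals too. Poly-A spike controls averaged 8.27 ± 1.03 in dKDM2 and 9.37 ± 0.26 in PH (SD, n = 3 each, deposited log2 signal), against 4.93 ± 1.01 on the Mock arrays (n = 14). They averaged 4.23 to 4.58 on the dRING, PC and PSC arrays. Arrays numbered 1 and 2 within dRING, PC, PSC and Mock correlated at 0.998 or 0.999 over genes, arrays numbered 1 and 3 at 0.976 to 0.991. Of 12 hemocyte markers, between 7 and 10 averaged above 4 on the log2 scale in every group, and those not above it included NimC1. Some of them differed between groups, in both directions. The scavenger receptor gene eater averaged 3.35 on the PSC and 4.81 on the PH arrays, against 7.94 in Mock. He averaged 3.64 on the PSC and 8.15 on the PH arrays, against 7.03 in Mock. The collagen gene vkg averaged 7.54 on the PSC and 6.53 on the PH arrays, but 11.01 on the dRING and 10.82 on the PC arrays, against 9.38 in Mock. In all 5 depletions ush was higher, at 10.2 to 11.2, against 9.38 in Mock. On the PH, dKDM2 and PSC arrays crq averaged 11.16, 10.56 and 10.11, against 9.25 in Mock. On the dKDM2 arrays drpr averaged 10.83, and 8.69 to 8.81 on the dRING, PC and PSC arrays, against 9.57 in Mock. Of 3 measured neuronal markers, elav alone was above 4, at 8.54 in dKDM2 and 9.01 in PH, against 6.17 in Mock. Of 3 measured germline markers, vas was not above 4 in any group. The germline marker aub averaged 5.78 in PH to 8.18 in PSC, against 8.17 in Mock. For bam the averages were 3.22 to 4.05 in the depletions, against 6.25 in Mock. Of 3 ovarian somatic markers, LanA alone was above 4, at 12.19 to 13.16 in the depletions, against 12.17 in Mock. None of the measured muscle and fat body markers were above 4. The part of these markers in the values below was not tested. All levels below are log2 signals after quantile normalization and differences are log2 differences of group means, with Mock summarised by its lowest, median and highest array. Levels of different genes are not compared, since each probe set has its own brightness.

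InR was higher than in Mock on every depletion array, and no array of any depletion overlapped the Mock arrays, which held for 0.617% of all genes tested. InR stood at 9.55, 9.96 and 9.63 on the dKDM2 arrays. It stood at 8.31, 8.13 and 8.87 on the dRING arrays and at 8.93, 8.80 and 8.94 on the PC arrays. The receptor gene was brightest on the PH arrays, at 9.66, 9.97 and 10.27, and reached 9.45, 9.31 and 9.48 on the arrays labelled PSC. The 14 Mock arrays ran from 4.70 to 8.12 with a median of 6.23, so the lowest depletion array (dRING 2) lay just above the highest Mock array. The difference from Mock was 3.28 (9.72-fold) for dKDM2, 2.00 (4.00-fold) for dRING, 2.46 (5.50-fold) for PC, 3.53 (11.6-fold) for PH and 2.98 (7.90-fold) for PSC, each with a standard error (SE) of 0.49. These differences lay at or above the 99.6th percentile of all genes tested in each depletion.

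The Mock arrays were themselves spread for InR, with an SD of 1.03, against SDs of 0.08 to 0.39 in the depletions. Mock 1, 2 and 3 stood at 6.70, 7.05 and 7.48, above the Mock median. With these 3 Mock arrays alone and the array number as a block, the InR difference was smaller, at 2.64, 1.36, 1.82, 2.89 and 2.34 for dKDM2, dRING, PC, PH and PSC, and its SE was 0.18. Each depletion array exceeded the Mock array of the same number, by 1.07 to 1.61 for dRING and by 2.79 to 2.96 for PH. Deviations of same-numbered PH and Mock arrays from their group means correlated at only 0.051 to 0.152. The PH differences were therefore not shown to be those of matched pairs. The dRING difference was 1.98 when the values were left as deposited or centred on array medians.

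**Figure D1:**
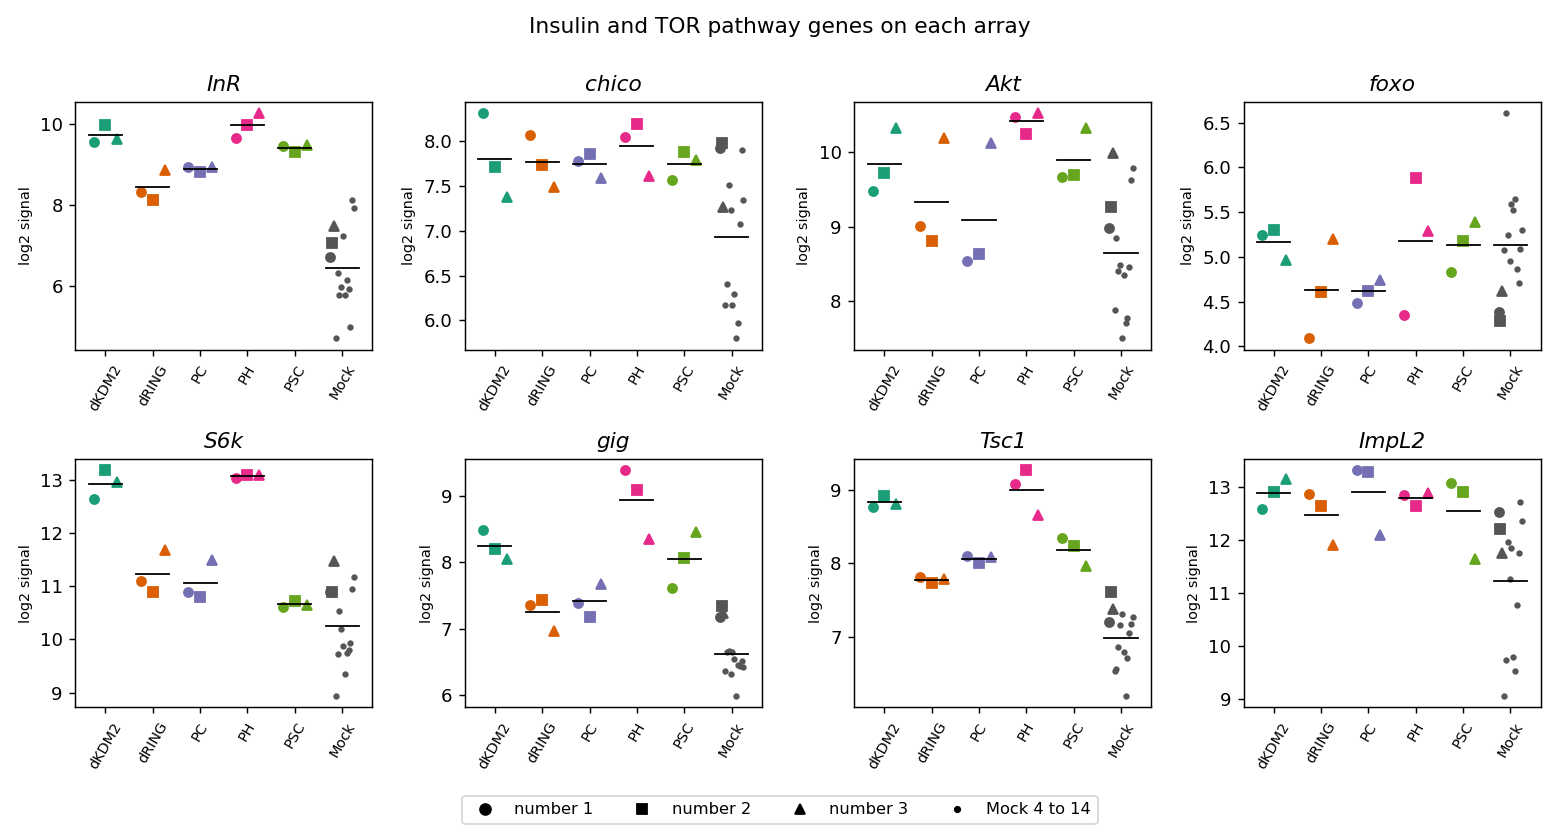
Log2 signal (vertical axis, quantile normalized) of the 8 measured genes on each array, grouped by depletion with Mock at the right. Circles, squares and triangles are arrays numbered 1, 2 and 3, small dots are Mock 4 to 14, and lines are group means. InR and Tsc1 lie above all 14 Mock arrays in every depletion, and S6k lies highest on the dKDM2 and PH arrays.

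The adaptor gene chico differed little between the depletions. It stood at 8.32, 7.71 and 7.38 on the dKDM2 arrays, and at 8.05, 8.20 and 7.61 on the PH arrays. The other 9 depletion arrays ran from 7.49 to 8.07, and the Mock arrays from 5.80 to 7.98 with a median of 7.16. Every depletion overlapped Mock. Differences from Mock were 0.81 to 1.02 (SE 0.38), and 0.02 to 0.23 (SE 0.19) with Mock 1 to 3 and the block. The Mock arrays numbered 1 and 2 were among the brightest of the Mock arrays for this gene.

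Akt, the kinase downstream of the receptor, was highest on the PH arrays, at 10.48, 10.24 and 10.53. It stood at 9.48, 9.72 and 10.32 on the dKDM2 arrays and at 9.67, 9.69 and 10.32 on the arrays labelled PSC. The Mock arrays ran from 7.50 to 9.99 with a median of 8.47. Only PH had every array above every Mock array. In dRING, PC and PSC the array numbered 3 was the brightest, at 10.19, 10.12 and 10.32, against 8.54 to 9.69 for their arrays numbered 1 and 2. Mock 3, at 9.99, was likewise the brightest Mock array, and the arrays numbered 3 also had the lowest GAPDH 5-prime minus 3-prime differences in these 4 groups, at -3.54 in dRING, -3.80 in PC, -2.61 in PSC and -3.44 in Mock. Whether the control difference has a part in the Akt values was not tested. The difference from Mock was 1.76 for PH (SE 0.45), 1.19 for dKDM2, 1.24 for PSC, 0.69 for dRING and 0.45 for PC. With Mock 1 to 3 and the block it was 1.00 for PH and -0.32 to 0.48 for the others (SE 0.24).

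foxo, the gene of the transcription factor, differed little from Mock. It stood at 5.24, 5.30 and 4.97 on the dKDM2 arrays, at 4.35, 5.88 and 5.29 on the PH arrays and at 4.83, 5.18 and 5.39 on the arrays labelled PSC. It was 4.09 to 5.20 on the dRING and 4.49 to 4.74 on the PC arrays, against 4.28 to 6.61 in Mock with a median of 5.09. All groups overlapped Mock. Differences were -0.52 to 0.04 (SE 0.35), and 0.18 to 0.74 (SE 0.30) with Mock 1 to 3 and the block. The direction for dKDM2 and PH turned with the scaling, to -0.68 and -0.71 with deposited values.

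S6k, which encodes the kinase of ribosomal protein S6, separated the dKDM2 and PH arrays from all others. It stood at 12.63, 13.17 and 12.95 on the dKDM2 arrays and at 13.02, 13.09 and 13.09 on the PH arrays. It stood at 11.10, 10.89 and 11.68 on the dRING arrays, at 10.89, 10.79 and 11.49 on the PC arrays and at 10.61, 10.72 and 10.64 on the arrays labelled PSC. The Mock arrays ran from 8.94 to 11.47 with a median of 10.07. The dKDM2 and PH arrays lay above every Mock array, and the other depletions overlapped Mock. The difference from Mock was 2.67 for dKDM2 and 2.81 for PH, against 0.98, 0.81 and 0.41 for dRING, PC and PSC (SE 0.37). With Mock 1 to 3 and the block these were 1.82, 1.97, 0.13, -0.04 and -0.44 (SE 0.19).

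Of the 2 subunits of the TSC complex, which restrains TOR, Tsc1 lay above every Mock array in all 5 depletions and gig in dKDM2, PH and PSC. Tsc1 stood at 8.77, 8.92 and 8.81 on the dKDM2 arrays and at 9.07, 9.26 and 8.66 on the PH arrays. It stood at 7.81, 7.73 and 7.79 on the dRING arrays, at 8.10, 8.00 and 8.08 on the PC arrays and at 8.34, 8.23 and 7.97 on the arrays labelled PSC. The Mock arrays ran from 6.20 to 7.61 with a median of 7.12, so no depletion overlapped Mock for Tsc1. The difference was 1.84, 0.78, 1.07, 2.01 and 1.19 for dKDM2, dRING, PC, PH and PSC (SE 0.20), and 1.43, 0.38, 0.66, 1.60 and 0.78 with Mock 1 to 3 and the block (SE 0.13).

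The partner gene gig stood at 8.49, 8.21 and 8.05 on the dKDM2 arrays, at 9.39, 9.09 and 8.36 on the PH arrays and at 7.62, 8.06 and 8.46 on the arrays labelled PSC. It stood at 7.36, 7.43 and 6.97 on the dRING and at 7.38, 7.18 and 7.68 on the PC arrays, against 5.98 to 7.34 in Mock with a median of 6.53. The dRING and PC arrays overlapped the brightest Mock arrays and the others did not. The difference from Mock was 1.63 for dKDM2, 2.33 for PH and 1.43 for PSC, and 0.63 for dRING and 0.79 for PC (SE 0.23). With the block and Mock 1 to 3 it was 1.00, 1.70, 0.80, 0.01 and 0.17 in that order (SE 0.28).

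ImpL2, the gene of the secreted insulin-binding protein, was bright in every group and varied most among the Mock arrays. It stood at 12.59, 12.91 and 13.16 on the dKDM2 arrays and at 12.86, 12.65 and 12.89 on the PH arrays. It was 11.91 to 12.87 on the dRING, 12.09 to 13.32 on the PC and 11.65 to 13.09 on the arrays labelled PSC, against 9.05 to 12.72 in Mock with a median of 11.75 and an SD of 1.24. Every depletion overlapped Mock. In dRING, PC and PSC the array numbered 3 was the dimmest, the opposite of Akt. Differences from Mock were 1.24 to 1.67 (SE 0.62), and 0.30 to 0.74 (SE 0.34) with Mock 1 to 3 and the block.

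Since the set was chosen on the contrast with Mock and the 5 comparisons share the Mock arrays, the counts that follow are set beside the share of all genes as a description, and nothing is read from them. In the limma fit across all genes, with a threshold of an adjusted p under 0.05, 6 of the 8 measured genes counted as higher after dKDM2 depletion, beside 18.4% of all genes tested. It was 2 of 8 after dRING depletion, beside 2.03%, and 2 after PC depletion, beside 3.32%. For PH it was 6, beside 19.7%, and for PSC 3, beside 10.0%. All genes tested include dim genes near the floor of the scale. Among 5537 expressed genes the shares counted as higher were larger, at 28%, 3.81%, 5.92%, 28.3% and 15.4% for dKDM2, dRING, PC, PH and PSC. The other shares of all genes given below include the dim genes too. The count of lower genes was 0 in every depletion, beside 14.7%, 0.745%, 1.22%, 15.4% and 6.51% of all genes for dKDM2, dRING, PC, PH and PSC. The depletion arrays lay above every Mock array for InR, S6k, gig and Tsc1 in dKDM2 (10.1% of all genes), for InR and Tsc1 in dRING (2.18%) and in PC (2.71%), for InR, Akt, S6k, gig and Tsc1 in PH (9.48%), and for InR, gig and Tsc1 in PSC (5.43%). This held in all 5 depletions at once for InR and Tsc1 and for 72 genes in all (0.617%). The median difference of the 8 genes was 1.64, 0.81, 0.81, 1.88 and 1.22 for dKDM2, dRING, PC, PH and PSC, beside 0 for all genes, and 0.87, 0.17, 0.17, 1.30 and 0.59 with Mock 1 to 3 and the block.

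**Figure D2:**
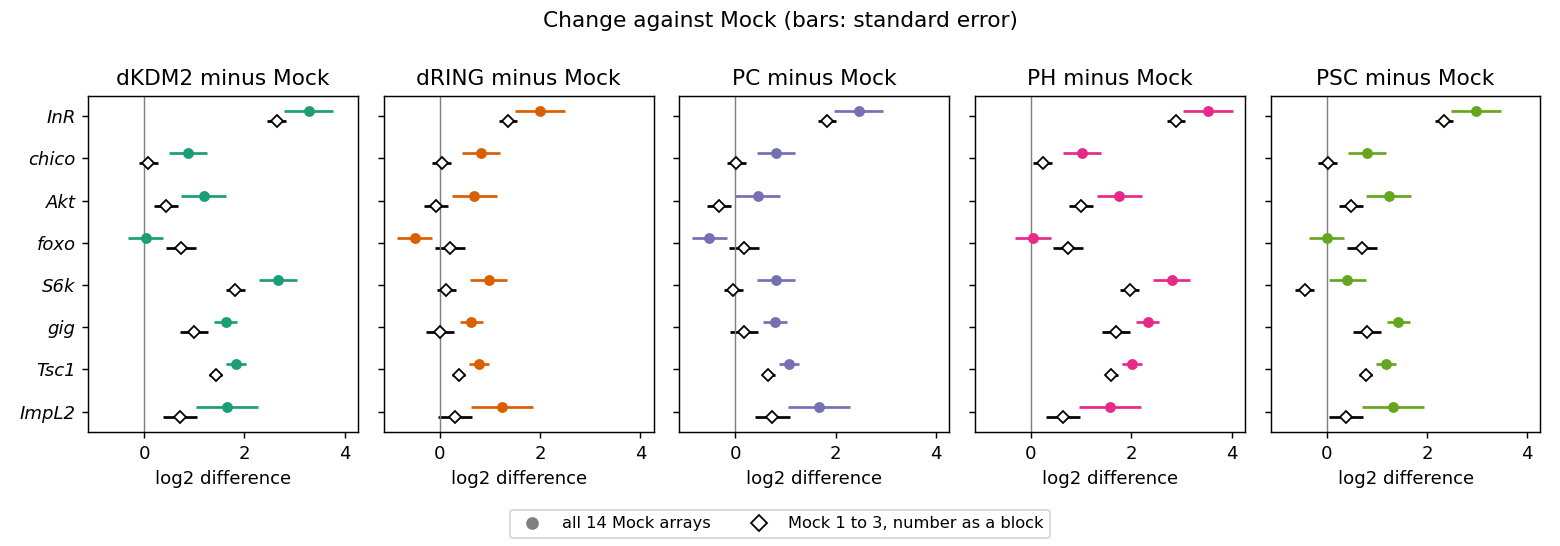
Log2 difference from Mock (horizontal axis) of the 8 measured genes in each depletion. Filled circles use all 14 Mock arrays, open diamonds Mock 1 to 3 with the array number as a block, and bars are standard errors. InR is at or above 1.36 in every panel by both fits, and chico lies between 0.02 and 0.23 by the second.

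The scaling of the arrays mattered for dKDM2 and PH. Without quantile normalization, the median difference of genes above 4 was -0.58 for dKDM2 and -0.75 for PH, and within 0.05 of 0 for the other depletions. With deposited values InR differed from Mock by 2.75 for dKDM2 and 2.93 for PH, S6k by 2.24 and 2.42, Tsc1 by 1.26 and 1.33, and gig by 1.01 and 1.66. These 4 genes therefore kept their direction for dKDM2 and PH, and foxo alone of the 8 changed sign.

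The depletions were then compared with each other, without Mock in the difference, to ask whether the genes of the set were set apart by which protein was depleted. Over 8 genes and 10 pairs, 15 differences were called by limma at an adjusted p under 0.05. All 15 lay between dKDM2 or PH on one side and dRING, PC or PSC on the other, with dKDM2 or PH higher. S6k, gig and Tsc1 made up all of them. The same arrays differed in the spike controls given above, at 7.15 or more on every dKDM2 and PH array and 5.18 or less on every dRING, PC and PSC array. A part of that in these differences therefore cannot be told apart from the depleted protein. Fits with the spike signal added are given below but cannot separate the 2 either, as the groups do not overlap in it.

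S6k was called in all 6 of these pairs. It was higher in dKDM2 than in dRING by 1.69 (3.23-fold, SE 0.47, limma adjusted p = 0.0173), than in PC by 1.86 (3.63-fold, p = 0.00981) and than in PSC by 2.26 (4.79-fold, p = 0.0015). It was lower in dRING than in PH by 1.84 (difference -1.84, 3.58-fold, limma adjusted p = 0.00802) and lower in PC than in PH (-2.01, 4.02-fold, p = 0.00442), and higher in PH than in PSC by 2.41 (5.31-fold, p = 0.000779). No array of dKDM2 or PH overlapped an array of dRING, PC or PSC for this gene. With deposited values and with median centring all 6 calls held, and with each array left out all but the dKDM2 to dRING call, which ended without dKDM2 2 (1.57), dRING 1 (1.63) or dRING 2 (1.52). With the spike signal as a covariate the calls of dKDM2 to dRING, dRING to PH and PC to PH ended, although the differences were larger (2.30, -2.62 and -2.78), and with arrays 1 and 2 averaged as 1 array those of dKDM2 to dRING, dKDM2 to PC and dRING to PH.

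Tsc1 was called in 5 pairs. It was higher in dKDM2 than in dRING by 1.06 (SE 0.26, limma adjusted p = 0.00675) and than in PC by 0.77 (p = 0.0476), and higher in PH than in PSC by 0.82 (p = 0.0273). It was lower in dRING than in PH (-1.22, limma adjusted p = 0.00166) and lower in PC than in PH (-0.93, p = 0.0132). Its partner gig was called in 4 pairs, higher in dKDM2 than in dRING by 1.00 (SE 0.30, limma adjusted p = 0.0273) and in PH than in PSC by 0.90 (p = 0.0392), and lower in dRING than in PH (-1.70, p = 0.000339) and in PC than in PH (-1.53, p = 0.00103). These calls leaned on the scaling. With deposited values and with median centring all 5 Tsc1 calls ended, as did those of gig except dRING to PH. With the spike signal as a covariate all 4 gig calls ended, although the differences stayed as large (1.03, -1.74, -1.58 and 0.95 for dKDM2 to dRING, dRING to PH, PC to PH and PH to PSC). So did the Tsc1 calls of dKDM2 to PC, PC to PH and PH to PSC, with larger differences (1.12, -1.39 and 1.30). Single arrays also decided some of them. The dKDM2 to PC call of Tsc1 ended with any 1 of its 6 arrays left out (0.73 to 0.80), the PC to PH call without PH 2 (-0.80), and the PH to PSC call without PH 1 (0.78), PH 2 (0.69), PSC 2 (0.84) or PSC 3 (0.71). The gig calls of dKDM2 to dRING and PH to PSC each ended with 4 of 6 arrays left out in turn (0.85 to 1.05, and 0.68 to 0.91). With arrays 1 and 2 averaged as 1 array, the Tsc1 calls of dKDM2 to PC (0.77), PC to PH (-0.93) and PH to PSC (0.87) ended. So did the gig calls of dKDM2 to dRING (1.07) and PH to PSC (0.80).

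By pair, 3 of the 8 genes were called between dKDM2 and dRING, beside 13.7% of all genes, 2 between dKDM2 and PC (13.1%), 1 between dKDM2 and PSC (16.4%) and 3 each between dRING and PH (16.6%), PC and PH (16.1%), and PH and PSC (17.5%). None of the 8 was called by limma between dKDM2 and PH (2.47%), dRING and PC (0.223%), dRING and PSC (3.37%) or PC and PSC (3.93%), where 1, 0, 1 and 1 had an unadjusted p under 0.05.

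InR itself was not called between any 2 depletions with all arrays. Its order was PH (9.97), dKDM2 (9.71), PSC (9.41), PC (8.89), dRING (8.43) and Mock (6.43). Neighbours PH and dKDM2, and PC and dRING, overlapped between arrays, and the other neighbouring depletions did not. The widest gap, dRING against PH, was -1.53 (95% interval -2.83 to -0.23, limma adjusted p = 0.1), and the gap of dKDM2 and PH was -0.25 (-1.55 to 1.05), which does not show that they were alike. The wide Mock spread enters this estimate. With Mock 1 to 3 in place of all Mock arrays and no block, limma called InR in 5 pairs, dKDM2 to dRING (1.28, adjusted p = 0.00123), dKDM2 to PC (0.82, p = 0.02), dRING to PH (-1.53, p = 0.000274), PC to PH (-1.08, p = 0.00367) and dRING to PSC (-0.98, p = 0.0168). With the block the dRING to PSC difference was also called (SE 0.18, limma adjusted p = 0.0061). Both fits count arrays 1 and 2 as separate, although they were nearly alike in dRING, PC, PSC and Mock. Each of these 5 differences was not called in 15 of 17 alternatives. Among those 15 were deposited values, median centring, and arrays 1 and 2 averaged. chico, Akt, foxo and ImpL2 were called in no pair. Their differences were largest for Akt between PC and PH (-1.32, 95% interval -2.49 to -0.14).

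**Figure D3:**
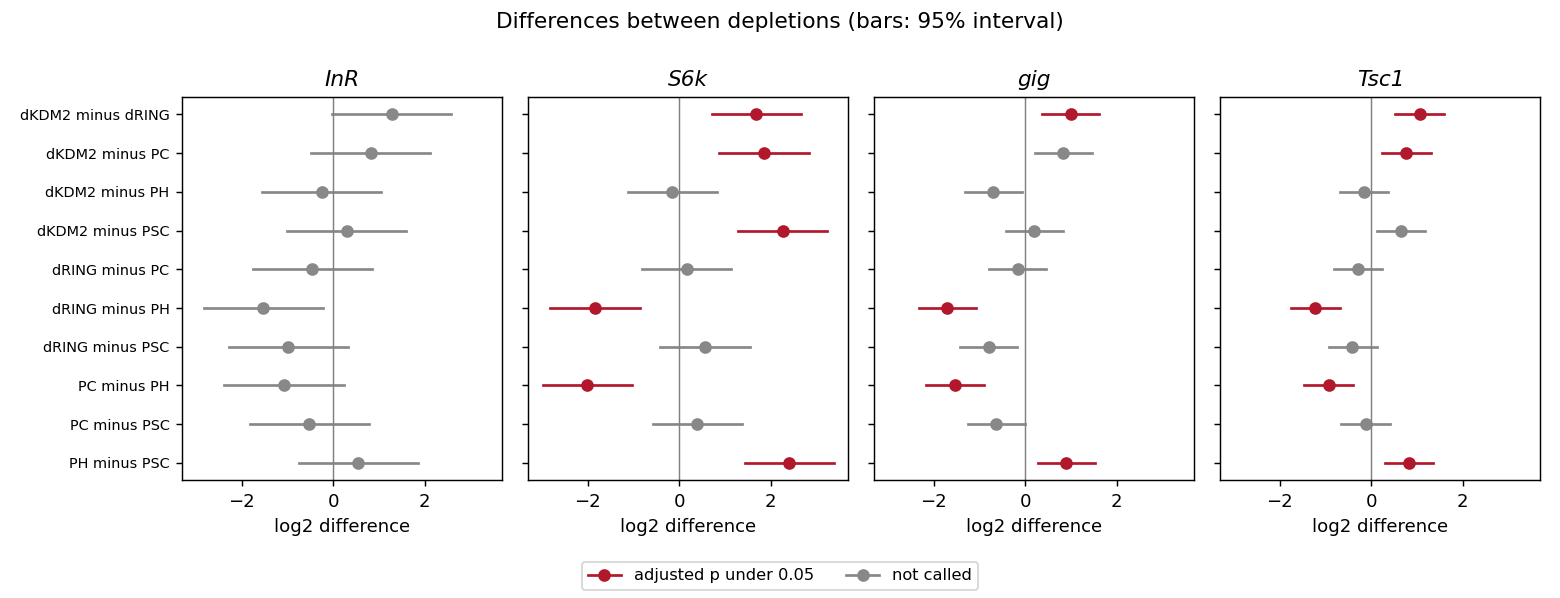
Log2 difference between each pair of depletions (horizontal axis, first-named minus second-named) for InR, S6k, gig and Tsc1, with 95% intervals. Red marks an adjusted p under 0.05. S6k is red in 6 pairs, all between dKDM2 or PH and another depletion, and InR in none.

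Other genes of the pathway were taken from 5 lists by role, 46 of 65 listed genes being measured. Against Mock, limma called 8 higher and 6 lower after dKDM2 depletion, 3 higher and 0 lower after dRING, 3 higher and 0 lower after PC, 12 higher and 5 lower after PH, and 10 higher and 4 lower on the arrays labelled PSC. Beside these counts, and those of each list below, stand the shares of all genes tested. They were 18.4% higher and 14.7% lower for dKDM2, 2.03% and 0.745% for dRING, and 3.32% and 1.22% for PC. For PH they were 19.7% and 15.4%, and for PSC 10.0% and 6.51%. Whether a list changed as a class was not tested. The median difference of the 46 genes was 0.12, 0.07, 0.04, 0.04 and 0.20 for dKDM2, dRING, PC, PH and PSC, beside 0 for all genes. For dKDM2 and PH the split depended on the scaling, with 10 lower for dKDM2 and 6 higher and 11 lower for PH with deposited values.

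Among TOR complex genes and inputs to the TSC complex (9 of 13 measured), 4, 1, 1, 5 and 3 rose in dKDM2, dRING, PC, PH and PSC and 0 fell. rictor, the defining subunit of TOR complex 2, which phosphorylates Akt, rose in all 5. It stood at 10.20 ± 0.06 on the dKDM2, 9.79 ± 0.33 on the dRING, 9.58 ± 0.18 on the PC, 10.38 ± 0.15 on the PH and 10.25 ± 0.38 on the PSC arrays (SD, n = 3 each), against 8.22 ± 0.67 on the Mock arrays (n = 14), and no depletion overlapped Mock. The differences were 1.98, 1.57, 1.36, 2.16 and 2.03 (SE 0.33, limma adjusted p = 4.58e-05, 0.0101, 0.0162, 1.45e-05 and 9.26e-05). The dRING call ended without dRING 1 (1.51) or dRING 2 (1.45), the PC call without any 1 of its arrays (1.26 to 1.43), and both with Mock 1 to 3 alone (0.83 and 0.62). The PC call also ended with deposited values (1.29). raptor, the defining subunit of TOR complex 1, rose after dKDM2 (1.98, SE 0.44, limma adjusted p = 0.000916) and PH depletion (1.69, p = 0.00365), the second not without PH 1 (1.36) or PH 2 (1.24), nor with deposited values (0.83). Both calls ended with the spike signal as a covariate (1.28 and 0.77). scyl, an inhibitor of TOR signalling of the REDD family, rose on the arrays labelled PSC (2.09, SE 0.61, limma adjusted p = 0.0185) and after PH depletion (1.57, p = 0.0471). The PSC call ended when any 1 of its arrays was dropped (2.03 to 2.18), and both calls ended with Mock 1 to 3 alone (the PH difference was then 0.98), the PH call also with the block.

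Between the receptor and Akt (6 of 13 measured), 2, 0, 1, 4 and 3 genes rose in dKDM2, dRING, PC, PH and PSC and 0 fell. Pdk1, the kinase that activates Akt and S6k, stood at 10.35 ± 0.38 on the dKDM2, 9.78 ± 0.31 on the dRING, 10.18 ± 0.27 on the PC, 10.42 ± 0.34 on the PH and 10.41 ± 0.39 on the PSC arrays, against 8.95 ± 0.52 on the Mock arrays. It rose after dKDM2 (1.40, SE 0.28, limma adjusted p = 0.000391), PC (1.22, p = 0.0115), and PH depletion (1.46, p = 0.00024) and on the arrays labelled PSC (1.46, p = 0.000615), and was 0.83 higher after dRING depletion without a call. The PC call ended with the block (0.80) and without PC 3 (1.07), and the dKDM2 and PH calls with the spike signal as a covariate (1.09 and 1.05). Ptp61F, a tyrosine phosphatase that acts on InR, rose after dKDM2 (2.10, SE 0.43, limma adjusted p = 0.000416) and PH depletion (2.06, p = 0.000494), the second not with Mock 1 to 3 alone (1.39). Sik3, a kinase that Akt phosphorylates, rose on the arrays labelled PSC (1.18, SE 0.33, limma adjusted p = 0.0145), not without PSC 3 (0.84), with Mock 1 to 3 alone (0.83) or with its probe sets averaged (0.46).

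The list of amino acid input to TOR (14 of 15 measured) holds both transporters and regulators, inhibitors of TOR among them. Of its genes 1 rose and 4 fell after dKDM2 depletion, 2 and 0 after dRING, and 1 and 0 after PC. After PH depletion 2 rose and 3 fell, and on the arrays labelled PSC 1 rose and 4 fell. RagC-D, a GTPase that recruits TOR complex 1 to the lysosome, fell after PH (-1.14, SE 0.20, limma adjusted p = 7.14e-05) and dKDM2 depletion (-0.74, p = 0.00475) and on the arrays labelled PSC (-1.06, p = 0.000414). The amino acid transporter gene mnd stood at 8.31 ± 0.23 on the dKDM2, 10.45 ± 0.13 on the dRING and 10.29 ± 0.12 on the PC arrays, against 9.20 ± 0.54 on the Mock arrays. It fell after dKDM2 (-0.89, SE 0.28, limma adjusted p = 0.0156) and rose after dRING (1.25, p = 0.0144) and PC depletion (1.09, p = 0.0227). These calls ended without dKDM2 1 (-0.78), dRING 1 (1.27) or 3 (1.18), and any 1 PC array (1.04 to 1.16), the dKDM2 call also with the spike covariate (-0.82), and those of dRING and PC with deposited values (1.12 and 0.98). mio, a subunit of the GATOR complex upstream of TOR, rose after dKDM2 (1.06) and PH depletion (1.13), but not with deposited values (0.34 and 0.26) or the block (0.46 and 0.52), nor without dKDM2 2 (0.96) or PH 1 (0.82). Sesn, which encodes a stress-induced inhibitor of TOR signalling, fell on the arrays labelled PSC (-1.24, SE 0.39, limma adjusted p = 0.0283), not without PSC 1 (-1.35) or PSC 3 (-0.84), nor with deposited values (-1.07).

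Of output genes (11 of 14 measured), 0 rose and 2 fell after dKDM2 and after PH depletion, 0 were called after dRING or PC depletion by limma (0 and 1 at an unadjusted p under 0.05), and 3 rose on the arrays labelled PSC. Tif-IA, the factor by which TOR signalling drives transcription of ribosomal RNA, fell after dKDM2 (-2.15, SE 0.33, limma adjusted p = 1.61e-05) and PH depletion (-1.97, p = 4.72e-05). It stood at 9.32 ± 0.22 in dKDM2 and 9.50 ± 0.41 in PH (SD, n = 3 each), against 11.47 ± 0.62 in Mock (n = 14). The translation initiation factor gene eIF4G1 fell in the same depletions (-1.60 and -1.44, SE 0.49, limma adjusted p = 0.0127 and 0.0231), not without dKDM2 1 (-1.26), PH 1 (-0.90) or PH 2 (-1.47). Both calls ended with the spike covariate (-1.08 and -0.75), and the PH call with Mock 1 to 3 alone (-1.59). On the arrays labelled PSC, Atg1, the kinase that starts autophagy and is held back by TOR, rose (1.47, SE 0.35, limma adjusted p = 0.00449). Pepck1, an enzyme gene of gluconeogenesis, rose there too (2.76, SE 0.72, limma adjusted p = 0.00887), but not with the block (1.84), without PSC 1 (2.43) or without PSC 2 (2.36). Of ligands and extracellular genes (6 of 10 measured) Lgr3 rose by 0.17 after dKDM2 depletion and Sdr by 0.70 after PH depletion. Both were close to the floor of the scale. Lgr3 was not called with the spike covariate (0.08), and the Sdr difference stood at -0.08 without PH 2.

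**Figure D4:**
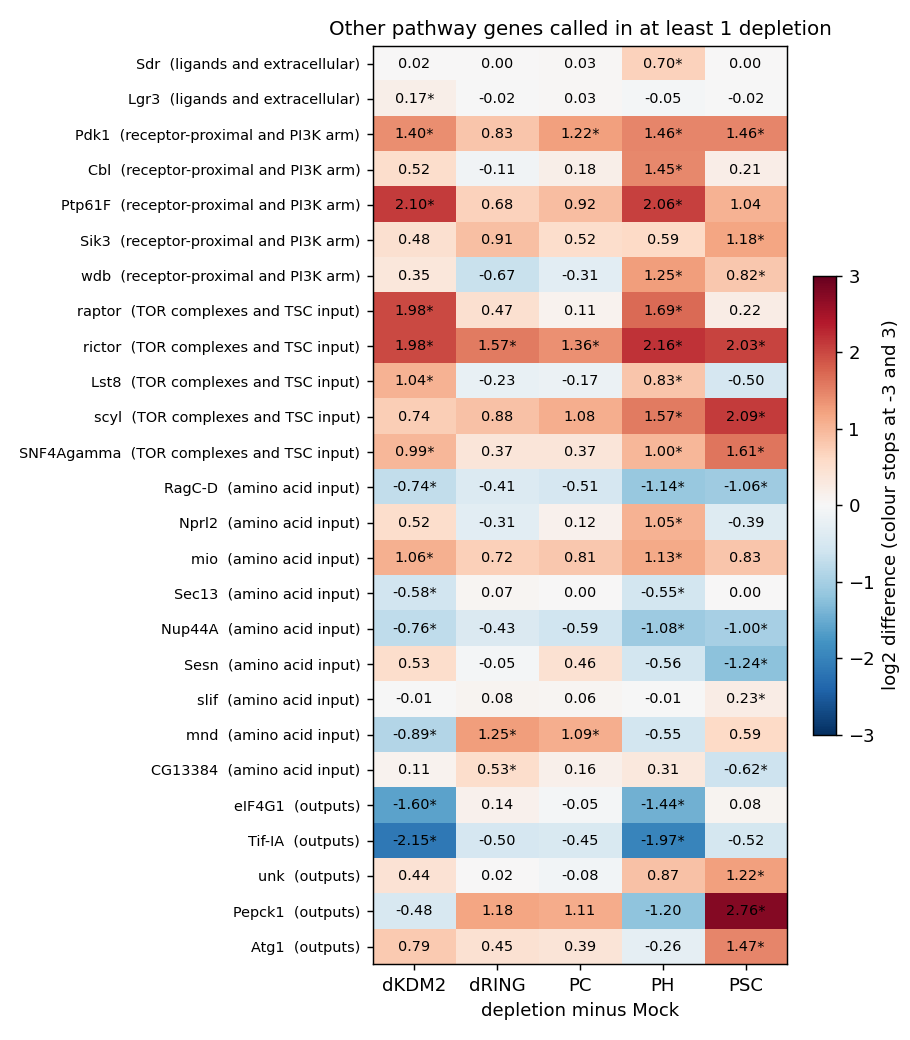
Log2 difference from Mock of the other pathway genes called in at least 1 depletion, one row per gene with its role list and one column per depletion. Red is higher and blue lower than Mock, and stars mark an adjusted p under 0.05. rictor is starred in all 5 columns, and eIF4G1 and Tif-IA are lower in dKDM2 and PH.

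The genes of the set also differed in length, a property the choice did not use. By genomic span, InR covered 49.1 kb, foxo 31 kb, S6k 13.4 kb, ImpL2 12.1 kb, gig 9.8 kb, Akt 6.4 kb, chico 4.6 kb and Tsc1 4.3 kb. Across 5537 expressed genes, which are not independent, longer span went with a higher difference from Mock (Spearman correlation 0.563, 0.534, 0.507, 0.481 and 0.547 for dKDM2, dRING, PC, PH and PSC). With Mock 1 to 3 and the block it was 0.436, 0.307, 0.254, 0.333 and 0.365. The 772 genes of 10 kb or more had median differences of 1.00, 0.45, 0.42, 0.92 and 0.65. InR differed by 2.00 to 3.53, but at 49.1 kb it is far longer than that limit, and genes near its own span were not compared separately. Among the 8 genes InR, the longest, had the largest difference in every depletion, while the long foxo and the short Tsc1 did not follow the order of length. A part of length in the InR values was not tested.

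Over the 29 arrays the genes with the pattern most like that of InR, among 5549 genes, were Pdk1 (Pearson r 0.943), Chpf (0.934), ct (0.917), chif (0.914) and PEK (0.913). For ImpL2 they were msk (0.939), Rcd5 (0.938), Hsc70-3 (0.934), NAT1 (0.933) and scny (0.932). Within the set, gig and Tsc1 correlated at 0.92 over all arrays, at 0.54 within groups and at 0.69 over the 14 Mock arrays. InR and Tsc1 gave 0.91, 0.52 and 0.59 in the same order. InR and foxo gave -0.07, 0.02 and -0.06, and foxo ran against ImpL2 at -0.48, -0.53 and -0.54. These values share the arrays, their scaling and the group differences, and are a description.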

How the data were processed

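Log2 signals of 18952 probe sets on 29 arrays were used as deposited. The submitters' processing notes name RMA and GCRMA, with no role or order. Labelling used 7 µg of total RNA with an integrity number above 8, per the labels' protocols. The lowest value, 2.27, was shared by all arrays and held 41.8% of values, so low genes are compressed. The platform annotation named exactly 1 gene for 13647 of 18769 gene probe sets, and 13544 were matched by gene number to the Release 6 plus ISO1 MT annotation. The brightest stood for each gene, and 305 genes with no array above the floor were not tested. Each measured gene of the set had 1 probe set, those of Akt and ImpL2 of the kind shared by several transcripts.

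Arrays were quantile normalized and fitted with limma 3.58.1 under R 4.3.3 (6 group means, eBayes with trend). P-values were two-sided and adjusted by Benjamini-Hochberg over 11677 genes in each comparison, and a gene was called under 0.05. The fit was run on simulated data with independent arrays and, for each gene, the same spread in every group. That setting lacks the nearly alike arrays and the wider Mock spread seen for InR, so it cannot show that the calls hold here. Control signals were compared by exact permutation of arrays. Among Mock, dRING, PC and PSC, deviations of same-numbered arrays from their group mean correlated over 0.1 in 18 of 18 cases (0.617 to 0.923). Arrays of different number were not compared. As arrays 1 and 2 were nearly alike in these groups, this cannot tell pairing by number from a departure of arrays 3 that the groups share. The deviations correlated over 0.1 in 3 of 3 cases between dKDM2 and PH (0.147 to 0.598), where the block changed no call in the set. Between Mock and dKDM2 or PH they did so in 2 of 6 (-0.11 to 0.152). A fit with the number as a block used Mock 1 to 3, and calls it ended may have ended with the fewer Mock arrays. Other alternatives were the scaling, the probe set rule, a filter on dim genes, the spike signal as a covariate, no trend, and arrays left out or averaged. The number of arrays, 3 per depletion, limits the precision. The genes, the lists and the rule for naming genes (up to 2 called genes per list and depletion with the largest change) were chosen with earlier results of these data known, and of the genes so named those described were picked after their values were seen.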

Additional observations from a re-analysis of the deposited data

Results flagged for a closer look

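Control signals outside the gene measurements differed between groups. Poly-A spikes, added to RNA before labelling, averaged 8.27 in dKDM2 and 9.37 in PH, against 4.93 in Mock (27 probe sets, deposited log2 signal, exact permutation tests, two-sided, adjusted p = 0.0098 for both, with 680 arrangements and thus a smallest possible p of 0.00147, which both reached). Hybridization controls averaged 12.18 in dKDM2 and 12.68 in PH, against 10.52 in Mock (18 probe sets, exact permutation, adjusted p = 0.0147 and 0.0098). All 3 arrays of both depletions lay above every Mock array in the spikes, whose highest Mock value was 7.12. The GAPDH 5-prime minus 3-prime difference was also lower on these arrays, at -2.78 for dKDM2 and -2.62 for PH, against -1.32 for Mock (exact permutation, adjusted p = 0.0196 for both). It was not particular to them, at -2.38 for PC and -2.24 for dRING (exact permutation, adjusted p = 0.0625 and 0.0687). The same difference for actin was -2.32 for dKDM2 and -3.07 for PH, against -1.45 for Mock (exact permutation, adjusted p = 0.332 and 0.0625). The dKDM2 and PH arrays are those on which S6k and Tsc1 were highest. For gig, PSC 3 (8.46) lay above 2 of the dKDM2 arrays and PH 3 (8.36). A part of the control signals in these values was not tested, and the spike covariate described above cannot separate it from the depletion.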

How the results depend on the processing

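Counts that moved by over 1.5 times are grouped here by setting. Against Mock, counts of genes of the set are a description, as the set was chosen on that contrast. Those past the threshold after dRING depletion (2 with all arrays) were 0 with deposited values, with median centring, with arrays numbered 3 left out and with arrays 1 and 2 averaged, and 1 with Mock 1 to 3, with or without the replicate block. Median centring gave 1 lower after PH depletion (0 without it); as array medians lie near the floor, it also moves values at the floor. Between depletions, deposited values and median centring gave 1 called gene for dKDM2 to dRING, dKDM2 to PC, PC to PH and PH to PSC. The replicate block gave 4 for dKDM2 to PC, 2 for dKDM2 to PSC, 5 for dRING to PH and PC to PH, and 1 for dRING to PSC. Mock 1 to 3 without the block gave 4, 2 and 1 for the first, second and last of these. The spike covariate gave 1 for dKDM2 to dRING, dKDM2 to PC, dRING to PH and PH to PSC and 0 for PC to PH. The dim gene filter, and leaving out the PSC arrays, gave 1 for dKDM2 to PC. Averaging arrays 1 and 2 gave 0 for dKDM2 to PC and 1 for dKDM2 to dRING and PH to PSC.

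Of the other pathway genes, deposited values gave 10 lower for dKDM2, 1 higher for dRING and for PC, and 6 higher and 11 lower for PH. Median centring gave 5 higher and 14 lower for dKDM2, 0 higher for dRING, 1 higher for PC, and 5 higher and 21 lower for PH. The spike covariate gave 6 higher and 2 lower for PH, the replicate block 11 lower for PH, and Mock 1 to 3 gave 6 higher for PSC. Leaving out arrays numbered 3 gave 1 higher for dRING, and 1 higher and 1 lower for PC, and averaging arrays 1 and 2 gave 0 higher for dRING and PC and 2 lower for PSC.

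With each array left out in turn, genes of the set past the threshold numbered 4 (dKDM2), 0 (dRING), 2 (PC), 5 (PH) and 3 (PSC), with 0 lower. Other pathway genes numbered 6 to 7 higher and 1 to 6 lower for dKDM2, 0 to 1 higher for dRING, 0 to 2 higher for PC, 8 to 9 higher and 4 to 6 lower for PH, and 7 to 8 higher and 2 to 3 lower for PSC. Between depletions the counts were 1 to 3 for dKDM2 to dRING, 1 for dKDM2 to PC and to PSC, 3 for dRING to PH, 2 to 4 for PC to PH and 1 to 3 for PH to PSC.

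Directions turned for InR between dKDM2 and PSC (-0.11 with deposited values, -0.19 with median centring) and between PH and PSC (-0.06 with median centring), differences not called before or after, and for Sdr after PH depletion (-0.08 without PH 2, to 1.09 with another PH array left out). The replicate block called InR in the 5 pairs that Mock 1 to 3 alone called and in PH to PSC (0.55). The cause of these shifts was not tested. The alternatives that left out or averaged arrays by number or label were chosen after seeing the data.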
